A study of Mus musculus with 5 samples.

Results

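Glycolysis splits glucose into pyruvate in the cytosol. The expression of 10 of its genes was followed through single bone marrow cells. The genes are the glucose transporter Slc2a1 (GLUT1) and hexokinase 2 (Hk2), which bring glucose into the cell and trap it there as glucose 6-phosphate, 7 enzymes of the steps that follow (Gpi1, Aldoa, Tpi1, Gapdh, Pgk1, Eno1 and Pkm), and Ldha, the lactate dehydrogenase subunit that turns pyruvate into lactate. They were taken by name, and all 10 were among the 27998 genes of each count table.

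The samples were 5 single-cell libraries of bone marrow from mice of a strain labelled Nes-GFP, a reporter strain in which Nestin regulatory sequence drives green fluorescent protein. Aged mice, over 20 months old, gave 2 libraries (replicates 2 and 3). Young mice, 10 to 12 weeks old, gave 3 (replicates 1, 2 and 3). In both groups cells without surface CD45 and with CD31 were sorted from endosteal preparations, the marrow next to bone, and were frozen and thawed before droplets were made. The labels do not say whether each library came from 1 animal or a pool, so the unit of each test is the library. Where classes of cells were compared within libraries, p-values measure how far the class difference varied from library to library. Between ages they measure the spread between libraries. Both groups carry the reporter, and no treatment is named.

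The sort was labelled endothelial, but endothelial markers defined few of the cells. Of 3384 barcodes, 2116 had at least 500 genes, at least 1000 unique molecular identifiers (UMIs, which count captured RNA molecules) and at most 10% mitochondrial UMIs. By marker genes, 1881 of these (88.9%) were B-lineage cells, 98 were myeloid and 20 endothelial, and 117 met no gate. The endothelial cadherin Cdh5 had a UMI in 90.0% of the 20 endothelial cells and in 0.326% of resting B-lineage cells. It is a marker of the endothelial gate, so the gate itself favours this difference. Pecam1 (CD31) and Ptprc (CD45), the genes of the sort, are in no gate. Pecam1 had a UMI in 90% of endothelial and 29.3% of resting B-lineage cells, and Ptprc in 0% and 25.4%. Libraries held 935656 to 5900751 UMIs in all. Kept cells had medians of 1889.5 to 4212.5 UMIs, and young replicate 1 was highest in both. Pairs of libraries shared at most 11 cell barcodes, of which at most 3 passed the filters. The most were shared by same-numbered libraries, 11 between replicates 2 and 9 between replicates 3 of the young and aged groups. Any other pair shared at most 3. The results below therefore describe B-lineage cells, with a comparison to myeloid cells in the 1 library that held more than 3 of them.

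Precursor B cells alternate between bursts of division and rest. Pro-B and large pre-B cells divide under interleukin 7 and pre-B receptor signals, and small pre-B cells stop dividing while they rearrange their light chain genes. Proliferating lymphocytes are known for running glycolysis at a high rate and for exporting lactate, since intermediates of the pathway feed the synthesis of nucleotides, serine and lipids.

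A B-lineage cell was called dividing when at least 2 of 20 G2/M genes or at least 2 of 18 S-phase genes were found among 1000 UMIs drawn from it, and resting when none was. This gave 814 dividing and 614 resting cells, and the 453 cells in between were left out. Of the dividing cells the 577 with at least 2 G2/M genes are called G2/M cells, whatever their S-phase genes, and the other 237 S-phase cells. The median G2/M cell had 5 G2/M and 4 S-phase genes and the median S-phase cell 0 and 4, so these names stand for gates and the G2/M gate also holds cells that carry S-phase transcripts. Young replicate 1 held 600 of the dividing cells but 31 of the resting ones. The other 4 libraries held 42 to 64 dividing and 113 to 181 resting cells. Counts were summed per library and class, and levels are counts per 1000000 UMIs of a class (CPM). Mean UMIs per cell were 1.77 to 2.40 times higher in dividing than in resting cells of the same library, so a level in CPM and a level per cell are different quantities and both are given.

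In dividing B-lineage cells 6 of the 8 members abundant enough to be tested rose in CPM, 1 fell and 1 passed in neither direction. Gapdh, Ldha, Tpi1 and Pgk1 rose most, by log2 1.64 to 1.23, Eno1 and Pkm rose less, and Aldoa fell. Slc2a1 and Hk2 were below the filter on low counts. Among all 5503 genes tested, 22.1% were higher and 17.8% lower in dividing cells (39.9% in all). The median log2 fold change was 0.92 over the 8 members and -0.03 over all genes tested. Tests are edgeR's quasi-likelihood test with the library as a block and Benjamini-Hochberg adjustment over all genes.

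Gapdh (chr6:125161715-125166467, minus strand, GRCm38) encodes the dehydrogenase that makes the NADH of the pathway. Its level in dividing cells was 590.3 and 579 CPM in aged replicates 2 and 3 and 641, 631 and 469 CPM in young replicates 1, 2 and 3. In resting cells it was 162 and 187 CPM in the aged and 309, 179 and 199.6 CPM in the young libraries. Every dividing sum was above every resting sum, and the log2 fold change was 1.64 ± 0.13 (SE, edgeR adjusted p = 1.09e-17). The share of all genes with such separation is not given, here or for the genes below.

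Ldha (chr7:46841475-46855627, plus strand) regenerates the NAD+ that the Gapdh step uses. Dividing cells had 247 and 213 CPM in aged replicates 2 and 3 and 261, 310.3 and 196 CPM in young replicates 1, 2 and 3. Resting cells had 57.4 and 83.6 CPM in the aged and 90.2, 74.0 and 119 CPM in the young libraries. Here too the groups did not overlap, and the log2 fold change was 1.63 ± 0.17 (SE, edgeR adjusted p = 4.9e-12).

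Pgk1 (chrX:106187100-106203699, plus strand), the kinase of the first step that yields ATP, had 115 and 134 CPM in dividing cells of aged replicates 2 and 3 and 88.1, 155 and 92.8 CPM in those of young replicates 1, 2 and 3. Its resting levels were 46.9 and 75.3 CPM in the aged and 64.4, 58.6 and 29.0 CPM in the young libraries. The lowest dividing sum exceeded the highest resting sum, with a log2 fold change of 1.23 ± 0.21 (SE, edgeR adjusted p = 3.04e-06).

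Tpi1 (chr6:124810586-124814296, minus strand) interconverts the pair of 3-carbon sugars that aldolase releases. It had 157 and 149.7 CPM in dividing cells of aged replicates 2 and 3, and 120.3, 159 and 38.2 CPM in those of young replicates 1, 2 and 3, against 36.5 and 61.3 CPM in resting cells of the aged and 51.5, 27.7 and 67.6 CPM in those of the young libraries. Young replicate 3 went the other way from the rest, with 7 UMIs in its dividing cells. The log2 fold change over all libraries was 1.48 ± 0.24 (SE, edgeR adjusted p = 8e-07) and was 1.88 without that library.

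The last steps to pyruvate moved less. Eno1 (chr4:150236721-150248879, plus strand), an enolase, averaged 127 ± 17.3 CPM in dividing and 87.9 ± 20.5 CPM in resting cells (SD, n = 5 libraries), a log2 fold change of 0.61 ± 0.19 (SE, edgeR adjusted p = 0.00778). Pkm (chr9:59656368-59679375, plus strand), the pyruvate kinase of most tissues, averaged 223 ± 47.4 CPM in dividing and 166 ± 25.3 CPM in resting cells (SD, n = 5 libraries), a log2 fold change of 0.49 ± 0.15 (SE, edgeR adjusted p = 0.00563). For both genes dividing cells were higher within each of the 5 libraries, while the ranges over libraries overlapped. Without aged replicate 3 neither passed (log2 fold changes 0.50 and 0.38).

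Gpi1 (chr7:34201330-34230336, minus strand) encodes the isomerase that follows hexokinase. It averaged 134 ± 31.4 CPM in dividing and 121 ± 42.5 CPM in resting cells (SD, n = 5 libraries). Its log2 fold change was 0.16 ± 0.17 (SE, edgeR adjusted p = 0.494), and it was higher in dividing cells of 4 libraries and lower in aged replicate 2.

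Aldoa (chr7:126795234-126800751, minus strand), the aldolase that splits the 6-carbon sugar, was the member that fell. Dividing cells had 44.9 and 82.7 CPM in aged replicates 2 and 3 and 65.9, 58.6 and 92.8 CPM in young replicates 1, 2 and 3. Resting cells had 151 and 159 CPM in the aged and 38.6, 157 and 148 CPM in the young libraries. The resting value of young replicate 1 rests on 3 UMIs in 31 cells and was the only one below its dividing partner. The log2 fold change was -0.93 ± 0.21 (SE, edgeR adjusted p = 0.000193) and -1.15 without young replicate 1.

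**Figure D1:**
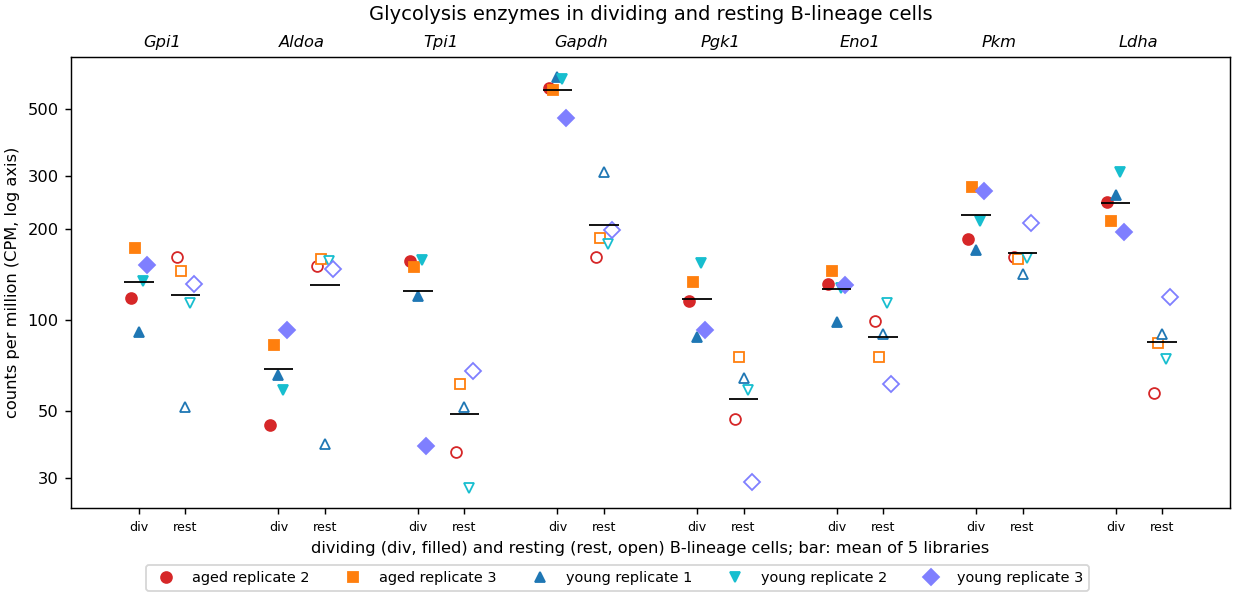
CPM (log axis) of 8 glycolysis genes in dividing (filled, left) and resting (open, right) B-lineage cells, with 1 point per library and a bar at the mean of 5 libraries. The points of Gapdh, Ldha and Pgk1 do not overlap between the classes, while 4 of the 5 resting points of Aldoa lie above all its dividing points. The share of all genes without overlap is not given.

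Counted per cell, Aldoa showed no common direction over the libraries. Dividing cells held 25 and 32.8 Aldoa UMIs per 100 cells in aged replicates 2 and 3 and 35.5, 40.5 and 32.7 in young replicates 1, 2 and 3. Resting cells held 43.6 and 31.5 in the aged and 9.68, 45.1 and 29.5 in the young libraries. The ratio per cell was above 1 in 3 libraries and below 1 in the other two, with a mean log2 ratio of 0.22 ± 0.99 (SD, n = 5 libraries, two-sided exact sign-flip permutation p = 0.75). The other members had more UMIs per cell when dividing. Ldha had 5.997 and Gapdh 5.86 times as many on average, Tpi1 4.89, Pgk1 4.48, Eno1 2.99, Pkm 2.71 and Gpi1 2.37 times, and each was above 1 in every library except Tpi1, whose ratio in young replicate 3 was 1. With 5 libraries the smallest p this exact test allows is 0.0625.

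**Figure D2:**
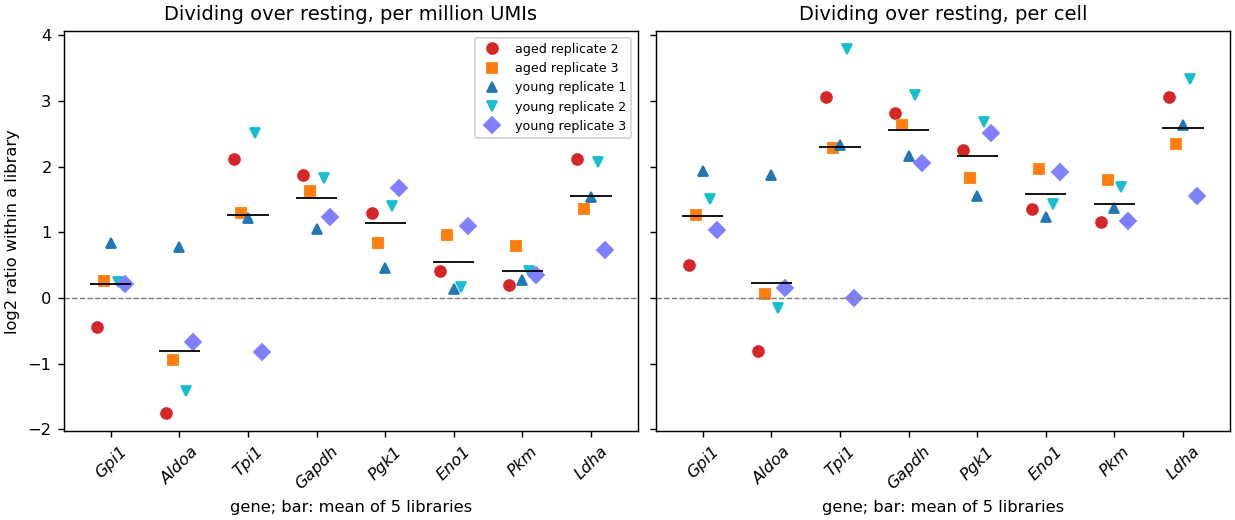
Log2 ratio of dividing over resting B-lineage cells within each library, in CPM on the left and per cell on the right, with a bar at the mean of 5 libraries. In CPM Aldoa averaged -0.80 and Gpi1 0.22, and per cell Aldoa averaged 0.22 and the other genes 1.25 or more.

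The gates bear on these values. Deeper cells weigh more in a sum, and the median cell of a class had 2745.5 to 4855 UMIs when dividing and 1836.5 to 2787 when resting across libraries. With every cell reduced to 1000 UMIs, Gapdh (log2 fold change 1.37) and Ldha (1.21) rose, Aldoa had -0.35 and Pkm 0.02 with neither passing, and Tpi1, Pgk1 and Eno1 had too few UMIs to be tested. With gates set on whole cells 4 members passed (Gapdh, Ldha, Pgk1 and Tpi1, all higher) and Aldoa had -0.21. Calls over all genes fell as well, from 2193 to 992 with gates on whole cells and 553 with cells reduced to 1000 UMIs. The erythroid marker list (7 of 7 genes detected in dividing cells) summed to 58.6 to 5173 CPM in dividing and 52.4 to 162 CPM in resting cells. Of the dividing cells 2, in aged replicate 3 and young replicate 3, had at least 50 haemoglobin UMIs among 1000, and without them the same number of members, 7, passed.

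Dividing and resting cells also differed in stage, so the contrast was repeated within cells that expressed at least 2 of the surrogate light chain and rearrangement genes Vpreb1, Vpreb2, Igll1 and Dntt. There 3 members passed, and 29.1% of 2328 genes were called. Ldha was higher in dividing cells by log2 1.46 ± 0.24 (edgeR adjusted p = 4.1e-05) and Gapdh by 1.44 ± 0.18 (6.7e-07), and Aldoa was lower by a log2 fold change of -0.99 ± 0.30 (0.0146). Tpi1 had 0.97, Pgk1 0.84, Eno1 0.36, Pkm 0.12 and Gpi1 -0.46, none of which passed. Within cells positive for MHC class II genes Gapdh alone was abundant enough to test, at log2 0.52 ± 0.39 (edgeR adjusted p = 0.379), and no member was called (21.1% of 795 genes).

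The promoters of 3 members are shown because these genes took opposite directions, with Ldha and Pgk1 higher and Aldoa lower in CPM in dividing cells. Each run holds the 250 bases before a RefSeq transcript start on GRCm38.p6, read 5′ to 3′ on the gene's strand, with capitals marking ACGTG on either strand, the core that hypoxia-inducible factors bind and that is part of the MYC E-box CACGTG. The runs are chr7:46845554-46845803 (plus strand) for Ldha, chrX:106186850-106187099 (plus strand) for Pgk1 and chr7:126799255-126799504 (minus strand) for Aldoa. Ldha has 2 windows and Aldoa 3, and a window that holds ACGTG was picked for each, while the second Ldha window and 1 of the Aldoa windows hold none. Gapdh and Tpi1 rose more than Pgk1 and are not shown. Tpi1 has no ACGTG, and in Gapdh it lies only past the start, outside such a run.
Ldha: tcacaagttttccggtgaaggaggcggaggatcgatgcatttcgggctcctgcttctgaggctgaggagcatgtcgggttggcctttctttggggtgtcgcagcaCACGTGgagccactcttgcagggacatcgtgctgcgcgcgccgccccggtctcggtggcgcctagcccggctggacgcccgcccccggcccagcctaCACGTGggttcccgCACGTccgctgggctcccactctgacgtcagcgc
Pgk1: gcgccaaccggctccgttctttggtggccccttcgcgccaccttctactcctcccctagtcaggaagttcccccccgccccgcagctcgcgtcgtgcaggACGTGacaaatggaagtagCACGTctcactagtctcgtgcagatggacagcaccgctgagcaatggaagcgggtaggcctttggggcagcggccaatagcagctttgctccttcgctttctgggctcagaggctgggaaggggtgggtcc
Aldoa: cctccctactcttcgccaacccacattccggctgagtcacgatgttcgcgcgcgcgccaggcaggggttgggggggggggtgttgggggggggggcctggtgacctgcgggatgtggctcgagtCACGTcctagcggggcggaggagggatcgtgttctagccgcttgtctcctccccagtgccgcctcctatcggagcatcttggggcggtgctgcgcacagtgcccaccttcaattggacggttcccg

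All 10 members matched the RefSeq table, with 16 start sites. In windows reaching 50 bases past the start, ACGTG was found in 8 of the 16 windows (50%), from 7 genes, and in 19.6% of all 32851 windows. The 16 windows are not independent. The 2 Aldoa windows with ACGTG overlap and hold the same site, and 2 of the Eno1 windows overlap as well. CACGTG, in which ACGTG reads on both strands, was found in 1 of the 16 (6.25%), an Ldha window, and in 7.15% of all windows. GGGCGG, the core of an Sp1 site, was found in 11 of the 16 (68.8%), from 9 genes, and in 35.7% of all windows. The Ldha window above holds CACGTG in 2 places, while Pgk1 holds ACGTG in 2 and Aldoa in 1. A match describes letters, and no binding was measured here.

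Slc2a1 (chr4:119108711-119137983, plus strand) and Hk2 (chr6:82725025-82774454, minus strand), the entry steps, gave few UMIs. Slc2a1 had 43 UMIs in all dividing and 14 in all resting cells. It had 22.5 and 19.7 CPM in dividing cells of aged replicates 2 and 3 and 7.73, 10.3 and 16.4 CPM in those of young replicates 1, 2 and 3, against 10.4 and 2.79 CPM in resting cells of the aged and 0, 12.3 and 16.1 CPM in those of the young libraries. The mean over libraries was 15.3 ± 6.20 CPM in dividing and 8.33 ± 6.72 CPM in resting cells (SD, n = 5 libraries). Of the 4 libraries with UMIs in both classes, 3 were higher in dividing cells, and the classes overlapped. Pooled over libraries the levels were 10.1 CPM (exact 95% Poisson interval 7.28 to 13.6) and 9.62 CPM (5.26 to 16.1), but the pooled dividing value is mostly young replicate 1, where the level was lowest. Hk2 had 31 UMIs in dividing and 3 in resting cells, or 7.26 CPM (4.93 to 10.3) and 2.06 CPM (0.425 to 6.03) pooled. All 3 resting Hk2 UMIs lay in young replicate 2. The interval covers counting error only, and most dividing UMIs of both genes came from young replicate 1.

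Shares of cells with a UMI were taken within each library and averaged, since young replicate 1 held 479 of the 577 G2/M and 121 of the 237 S-phase cells. After reduction to 1000 UMIs a Gapdh UMI was found in 34.6% ± 6.46 of S-phase, 33.3% ± 8.74 of G2/M and 17.6% ± 8.43 of resting cells (SD, n = 5 libraries; unreduced 64.7%, 74.6% and 32.4%). The resting share was 32.3% in young replicate 1, from 31 cells, and 12.4% to 17.3% in the other 4 libraries, so the ranges overlapped through that library. For Aldoa the shares were 9.61% ± 5.55, 7.97% ± 4.07 and 9.91% ± 5.65 (unreduced 33.6%, 16.7% and 23.5%), which differed by less than their spread at the reduced depth. Slc2a1 was found in at most 4% of the cells of any of these classes and libraries at that depth. All cells use glycolysis, so no cell type could give a background share for these genes.

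The 2 gates of dividing cells were also set against resting cells one by one. In S-phase against resting cells 6 of the 8 members rose and none fell (20.4% of 4101 genes were higher, and 36.5% changed in either direction), namely Ldha by log2 1.82 ± 0.20, Gapdh by 1.80 ± 0.14, Tpi1 by 1.49 ± 0.30, Pgk1 by 1.31 ± 0.24, Eno1 by 0.91 ± 0.22 and Pkm by 0.64 ± 0.18 (SE). Aldoa had a log2 fold change of -0.51 ± 0.25 there (edgeR adjusted p = 0.109) and Gpi1 0.37 ± 0.20 (0.159). The 6 calls became 1, Gapdh, with gates set on whole cells, where Aldoa had a log2 fold change of 0.24, and 1 with cells reduced to 1000 UMIs, where Gapdh alone was abundant enough to test. In G2/M against resting cells Gapdh, Tpi1, Ldha and Pgk1 rose (22.1% of genes higher, 44.8% in either direction) by log2 1.39, 1.33, 1.32 and 1.04, and Aldoa fell by 1.47 (22.7% of genes lower; edgeR adjusted p = 2.12e-05). Eno1 (0.21) and Pkm (0.26) did not pass. With cells reduced to 1000 UMIs Gapdh was the 1 member called there too.

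Between the gates the fitted log2 fold change of G2/M over S-phase cells was below 0 for all 8 members, at a median of -0.45 against -0.03 over all genes. For Tpi1 it was -0.15 ± 0.25 (SE), and 3 of the 5 libraries were higher in G2/M cells. Aldoa (-0.96 ± 0.27), Eno1 (-0.70 ± 0.21) and Gapdh (-0.41 ± 0.13, SE) passed, with 4.17% of 4101 genes called lower (9.05% in either direction). Aldoa had 26.2 and 31.6 CPM in G2/M cells of aged replicates 2 and 3 and 58.2, 54.8 and 40.4 CPM in those of young replicates 1, 2 and 3, against 55.8 and 134 CPM in S-phase cells of the aged and 95.7, 67.2 and 154 CPM in those of the young libraries. It was lower in G2/M cells of all 5 libraries, from 3 to 150 UMIs a sum. The number of members called was 0 with DESeq2 and 0 without aged replicate 3, and with gates set on whole cells in place of 1000 UMIs Gapdh, Ldha, Pgk1 and Tpi1 were higher in G2/M cells (log2 0.94, 0.53, 0.97 and 1.16) and Aldoa lower (-1.04).

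**Figure D3:**
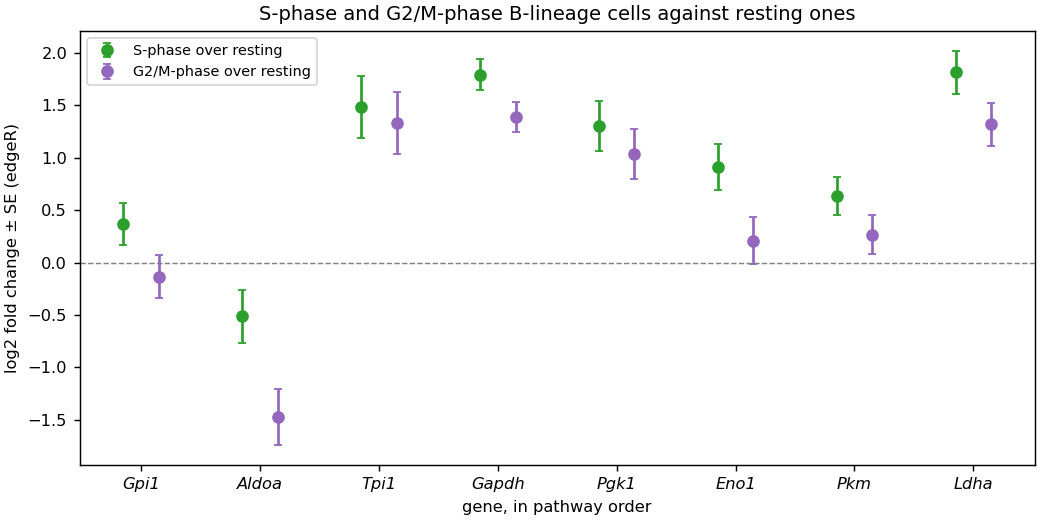
Log2 fold change (with SE, edgeR) of 8 glycolysis genes in S-phase and G2/M-phase B-lineage cells over resting ones. The S-phase point lies above the G2/M point for each gene, and Aldoa lies below 0 in both, at -0.51 and -1.47.

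Resting cells were ordered into stages by marker genes, from cells with surrogate light chain genes (169 cells) through Rag-positive (45) and Cd2- or Ms4a1-positive cells (161) to cells with MHC class II genes (98). A further 141 resting cells were not staged. Only Pkm, Gpi1, Gapdh and Aldoa had enough UMIs for a test among 1832 genes. Pkm and Gpi1 were lower in MHC class II-positive than in surrogate light chain-positive cells, and Gapdh was too at the edge of the threshold. That is 3 of 4 tested members lower, with 8.73% of genes called lower (15.7% in either direction). With cells reduced to 1000 UMIs Pkm was the 1 member called (log2 -1.83). With gates set on whole cells no member was called, and Gapdh alone had enough UMIs to be tested (log2 -1.11 ± 0.66, edgeR adjusted p = 0.391).

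Pkm had 106 and 68.6 CPM in MHC class II-positive cells of aged replicates 2 and 3 and 108, 123 and 93.4 CPM in those of young replicates 1, 2 and 3. Surrogate light chain-positive cells had 217 and 235 CPM in the aged libraries and 384 and 342 CPM in young replicates 2 and 3, and young replicate 1 had 9 such cells, too few for a sum. The stages did not overlap, and the log2 fold change was -1.55 ± 0.32 (SE, edgeR adjusted p = 0.00025). The share of all genes with such separation between these stages is not given. Among sums of at least 10 cells the middle stages had 93.6 to 197 CPM (Rag-positive) and 92.0 to 164 CPM (Cd2- or Ms4a1-positive), all below the first stage and overlapping the last, and no step between neighbouring stages passed for any of the 4 tested members. Of all genes, 11.8% were called from the first stage to the second, 0.164% from the second to the third and 2.13% from the third to the fourth.

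Gpi1 had 159 and 51.4 CPM in MHC class II-positive cells of the aged and 36.1, 68.3 and 23.3 CPM in those of the young libraries, against 217 and 243 CPM in surrogate light chain-positive cells of the aged libraries and 160.1 and 208 CPM in those of young replicates 2 and 3. The log2 fold change was -1.52 ± 0.39 (SE, edgeR adjusted p = 0.00364). Gapdh gave -0.84 ± 0.30 (0.047), with 541 CPM in the MHC class II-positive cells of young replicate 1 (15 UMIs in 11 cells), which had no partner for the test. Aldoa had -0.42 ± 0.34 (0.471). Sums held as few as 1 UMI of Gpi1, and without aged replicate 3 the call of Pkm was the only one left.

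**Figure D4:**
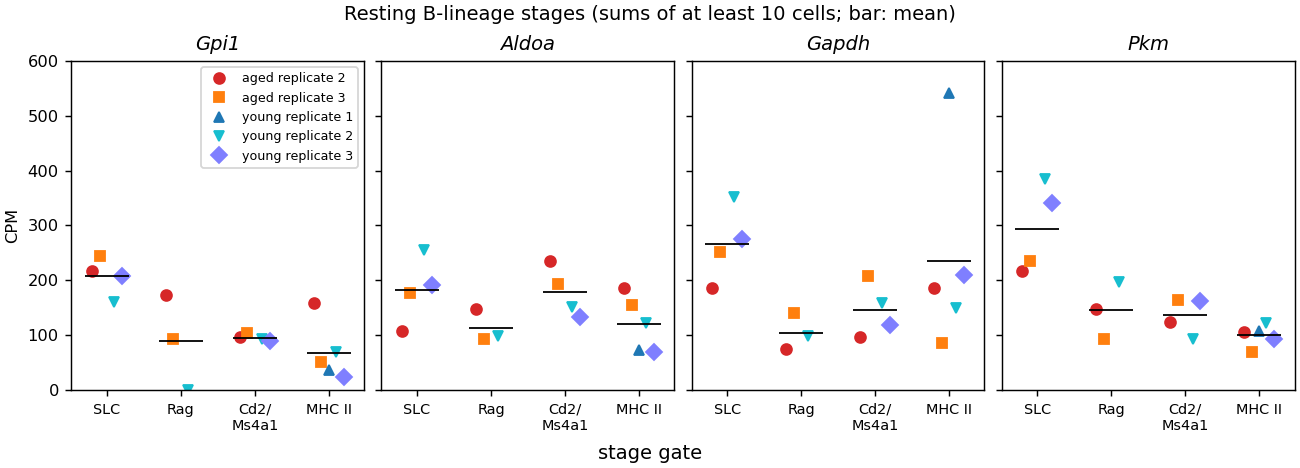
CPM of Gpi1, Aldoa, Gapdh and Pkm in 4 stages of resting B-lineage cells, from surrogate light chain (SLC) to MHC class II, with 1 point per library sum of at least 10 cells and a bar at the mean. The Pkm points of the first stage (217 to 384) lie above those of the last (68.6 to 123). The share of all genes without overlap is not given.

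No member differed detectably between aged and young libraries. In resting cells the log2 fold changes, aged over young, ran from -0.48 ± 0.37 for Ldha to 0.43 ± 0.32 for Gpi1, and in dividing cells from -0.25 ± 0.38 for Aldoa to 0.37 ± 0.39 for Tpi1 (SE). The edgeR quasi-likelihood test called 0 of 4838 genes in resting and 0 of 4447 in dividing cells (0.0% each). At an unadjusted p under 0.05 it gave 111 and 173 genes, none of them a member, and DESeq2 also called 0 members. The change with division itself, tested as an interaction, differed between aged and young for 0 members (0.0363% of 5503 genes), with aged minus young differences from -0.61 ± 0.42 for Aldoa to 0.48 ± 0.46 for Tpi1.

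Myeloid cells (93 of 98 in young replicate 1) carried higher levels of most members than the B-lineage cells of that library. There is 1 library, so these ratios have no test and their intervals cover counting error only. Over dividing B-lineage cells 5 of 10 members were more than 2 times higher and none more than 2 times lower, while 12.3% of 9600 genes were more than 2 times higher and 22.3% more than 2 times lower. Aldoa had 286 CPM in myeloid and 65.9 CPM in dividing B-lineage cells, a ratio of 4.34 (exact 95% interval 3.65 to 5.16). Gpi1 had 324 and 91.5 CPM, a ratio of 3.54 (3.04 to 4.12). Hk2, from 25 and 22 UMIs, had a ratio of 2.85 (1.54 to 5.31), Eno1 2.58 (2.21 to 3.02) and Pkm 2.53 (2.25 to 2.85). Ldha, with 339 and 261 CPM, had the smallest ratio of the abundant members at 1.30 (1.16 to 1.46), and Slc2a1 had 1.00 (0.430 to 2.16).

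Over the 31 resting B-lineage cells of the library all 8 members with a UMI in them were more than 2 times higher in myeloid cells (10.2% of 7564 genes), from 2.49 for Pgk1 (1.05 to 7.76) to 7.39 for Aldoa (2.51 to 36.0). Those resting sums held 3 to 24 UMIs of each member, and with cells reduced to 1000 UMIs 4 members were more than 2 times higher, with gates on whole cells 3. The 10.2% also covers genes without a resting UMI, which were set to 3 UMIs in resting cells. The 8 members exclude Slc2a1 and Hk2 for lack of one, so the share and the 8 members are not like sets. The myeloid cells had a median of 13879 UMIs, and 69 of the 93 met the dividing gate. The neutrophil list (12 of 12 genes detected) summed to 14425 CPM in them, the monocyte and macrophage list (7 of 8, C1qa at 0) to 2448 CPM and the basophil and mast cell list (7 of 7) to 1903 CPM, so several kinds of myeloid cell were pooled. B-lineage markers were at 681 CPM in them, against 9453 to 14225 CPM over the dividing B-lineage sums of all libraries. The part of depth and division in these ratios was not tested.

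**Figure D5:**
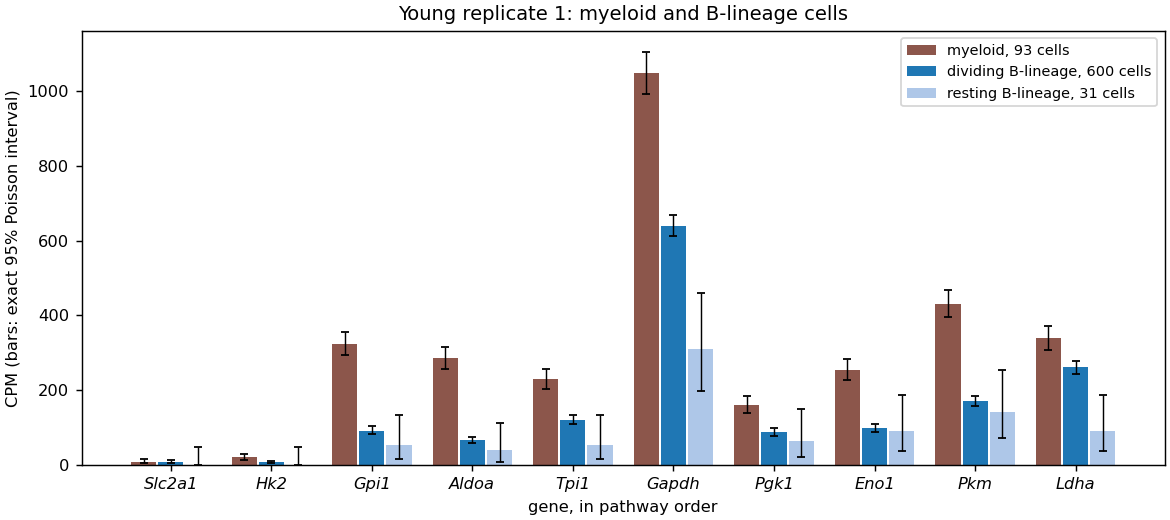
CPM of the 10 genes in myeloid, dividing B-lineage and resting B-lineage cells of young replicate 1, with exact 95% Poisson intervals that cover counting error only. Aldoa and Gpi1 stand highest over dividing B-lineage cells, at 4.34 and 3.54 times, and Slc2a1 and Hk2 have no UMI in the 31 resting cells.

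Across the 15 sums of resting, S-phase and G2/M cells the members did not vary as 1 group. Ldha and Gapdh had a Pearson r of 0.94 and Gapdh and Pgk1 0.82 on the log2(CPM + 1) scale, while Aldoa and Gapdh had -0.50 and Gapdh and Gpi1 0.09. The sums share libraries and differ in depth, and the values are descriptions. Among 2976 genes, those most like the mean of the 8 abundant members were Rplp0, Gm10073, Gm10250, Npm1 and Rpl3 (r 0.86 to 0.87), of which Rplp0 and Rpl3 encode ribosomal proteins and Npm1 a nucleolar protein of ribosome assembly. The least like were Rbm25, Tgfbr2, Pafah1b3, 4930523C07Rik and Csnk1e (r -0.87 to -0.82).

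In dividing against resting cells, of 29 further glycolysis enzymes and glucose or lactate carriers 6 could be tested, and 2 rose and 1 fell, a share near the 39.9% of all genes called in this contrast. Pgam1, the mutase between Pgk1 and Eno1, rose by log2 0.96 ± 0.27 (edgeR adjusted p = 0.00276), and Slc16a1 (MCT1), a lactate and pyruvate carrier, by 0.67 ± 0.16 (0.000557). Hk1, the hexokinase of most tissues, fell by log2 1.20, from few UMIs (edgeR adjusted p = 0.0341). It had 3.21 and 23.6 CPM in dividing cells of aged replicates 2 and 3 and 7.73, 20.7 and 21.8 CPM in those of young replicates 1, 2 and 3, against 26.1 and 39.0 CPM in resting cells of the aged and 51.5, 12.3 and 61.2 CPM in those of the young libraries. Young replicate 2 was the library where Hk1 was higher in dividing cells.

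In the pentose phosphate and serine branches 5 of 11 tested genes (of 12) rose and none fell, where 22.1% of all genes rose, at a median log2 fold change of 0.88. Psat1, an aminotransferase of serine synthesis, rose by log2 1.72 ± 0.29 (edgeR adjusted p = 9.52e-07). Tkt, the transketolase of the pentose phosphate pathway, rose by 1.20 ± 0.16 (8.21e-09), and Phgdh, which draws 3-phosphoglycerate into serine, by 0.88 ± 0.15 (1.25e-06). Phgdh was also lower in MHC class II-positive than in surrogate light chain-positive resting cells (log2 -1.14 ± 0.33, 0.0128).

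Entry of pyruvate into mitochondria gave no call, with 0 of 5 tested genes (of 11) passing in dividing against resting cells. Of all genes 39.9% passed there. The lowest edgeR adjusted p was 0.194, for the dehydrogenase subunit Pdha1 at log2 -0.32 ± 0.20. In G2/M against resting cells Pdha1 was lower, by a log2 fold change of -0.63 ± 0.25 (edgeR adjusted p = 0.0347). It was the 1 call among the 5 tested there, where 44.8% of all genes were called. In the stage contrast Pdha1 was higher in MHC class II-positive than in surrogate light chain-positive cells by log2 1.01 ± 0.35 (edgeR adjusted p = 0.0436). It was the 1 call among 3 tested genes of the list, with 15.7% of all genes called.

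Among 20 regulators and hypoxia targets 11 could be tested, and 5 fell and none rose in dividing cells, where 17.8% of all genes fell, at a median log2 fold change of -0.46. Txnip, an arrestin-like protein that removes glucose transporters from the cell surface, fell, with a log2 fold change of -0.98 ± 0.15 (edgeR adjusted p = 1.07e-07). It had 189 and 173 CPM in dividing cells of aged replicates 2 and 3 and 55.3, 114 and 257 CPM in those of young replicates 1, 2 and 3, against 391 and 343 CPM in resting cells of the aged and 180.3, 305 and 344 CPM in those of the young libraries. Dividing cells were lower in all 5 libraries. Foxo1, a transcription factor held in check by growth factor signals, had -0.84 ± 0.15 (8.22e-06), and Bnip3l, a mitophagy receptor induced by hypoxia, -0.82 ± 0.15 (4.61e-06).

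Some counts could hold reads of other genes. Tpi1, Gapdh, Gpi1, Aldoa, Hk2 and Slc2a1 overlap genes on the opposite strand, and the largest total of such a neighbour over all kept cells was 190 UMIs, for Spsb2 beside Tpi1. On the same strand Pkm overlaps Gm49759 over 3887 bases and Slc2a1 overlaps Mir1957a over 66 bases. Neither of these neighbours was among the counted genes. Gapdh, Pgk1, Ldha and Tpi1 have processed pseudogenes, and how shared reads were counted is not given in the sources used here, so their levels are uncertain to that extent. Eno1b was counted apart from Eno1, with 182 against 1256 UMIs in total. How any reads shared by these genes were counted is not given either.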

How the data were processed

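The authors deposited 1 table of raw UMI counts per library, with Ensembl genes in rows and cell barcodes in columns. The submitters' processing notes list Cell Ranger, the build mm10, DESeq2 1.22.2, edgeR 3.24.3 and R 3.5.2, with no role. The Cell Ranger version is not given in the sources used here. Gene names matched 27645 of 27998 identifiers. Positions are from GENCODE M21 (GRCm38).

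Cells were filtered and thinned to 1000 UMIs, and classes were set on the thinned counts from marker genes alone (none a member). A B-lineage cell had at least 2 of 10 B-lineage markers and at most 1 myeloid and 1 endothelial marker, a myeloid cell at least 3 myeloid and at most 1 B-lineage marker, and an endothelial cell at least 3 endothelial markers. Scrublet (scanpy 1.11.5) marked 58 kept cells as doublets, which stayed in. Whole counts were summed per library and class of at least 10 cells and tested in edgeR 4.0.16 (R 4.3.3; TMM, filterByExpr, quasi-likelihood F test, Benjamini-Hochberg adjusted p under 0.05), with the library as a block except between ages. A standard error is the log2 fold change divided by the square root of F. The procedure was tested on simulated counts.

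The members, lists and gates were chosen with earlier results of these data known. Beyond the members, the text takes up to 3 tested genes of smallest p from each wider list, and the 5 genes most and least like the members among genes of at least 50 CPM. Alternatives were DESeq2 1.42.0, RLE scaling or none, no low-count filter, other gates and cell filters, Leiden clusters (leidenalg 0.10.2), no library term, the replicate block, and each library left out. The unscaled, within-stage and haemoglobin-rich-cell alternatives were added after seeing the data.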

Additional observations from a re-analysis of the deposited data

How the results depend on the processing

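Of 547 alternative values of single members, 484 kept their direction and side of the threshold, 49 no longer passed, 3 newly passed and 11 changed sign. In dividing against resting cells the 7 members called became 4 with gates on whole cells, 2 with thinned counts, and 3 and 0 within surrogate light chain and MHC class II cells, and 5 to 7 with 1 library left out. The 2193 genes called became 1452 with DESeq2, 1461 with no library term, 992 with gates on whole cells, 553 thinned, 677 and 168 within those stages, and 1728 to 2051 with 1 library left out. Thinned sums hold fewer UMIs and so fewer tested genes. Gpi1 changed sign among cluster classes (-0.00089) and within surrogate light chain cells (-0.46).

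In G2/M against S the 3 members became 0 with DESeq2 or thinned counts, 1 with no filter or no scaling, 5 with gates on whole cells (4 higher, and Aldoa lower at -1.04), and 0 to 2 with 1 library left out (0 without aged replicate 3, 1 without young replicate 1). Under gates on whole cells the log2 changes were 0.53 (Ldha), 0.94 (Gapdh), 0.97 (Pgk1) and 1.16 (Tpi1) for those higher and 0.10 for Pkm, which did not pass (adjusted p = 0.718), and Tpi1 ran from -0.26 to 0.039 with 1 library left out (positive without aged replicate 2). The 371 genes became 106 thinned, 1088 with gates on whole cells and 206 to 375 with 1 library left out. In S against resting the 6 members became 1 with thinned counts or gates on whole cells, and the 1495 genes 181 and 162, with Aldoa at 0.24 under the latter setting. In G2/M against resting the 5 members became 1 thinned, the 1836 genes 297 thinned and 2825 among cluster classes, and Gpi1 was 0.21 with gates on whole cells and ran from -0.18 to 0.11 with 1 library left out (positive without aged replicate 2).

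Between stages, the 3 members called in MHC class II against surrogate light chain cells became 1 thinned, 5 among cluster classes, 0 with gates on whole cells and 1 to 3 with 1 library left out. The 288 genes became 166 (DESeq2), 500 (cells near the gate added), 87 (thinned), 890 (clusters), 72 (gates on whole cells) and 179 to 288. In Rag against surrogate light chain cells the 0 members became 1 with cells near the gate and 2 with no filter, and the 216 genes 127 (DESeq2), 342 (near the gate), 63 (thinned), 134 (no doublets) and 96 to 216. In Cd2 or Ms4a1 against Rag the 3 genes became 1 (DESeq2, no doublets), 7 (no filter) and 1 to 3. In MHC class II against Cd2 or Ms4a1 the 39 genes became 14 (DESeq2, no filter), 16 (thinned), 82 (clusters), 5 (gates on whole cells) and 12 to 39.

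Between ages no alternative called a member. Of all genes, no filter called 7 in resting and 6 in dividing cells, and leaving out 1 library 0 to 3 and 0 to 2. Whether replicate numbers pair the libraries could not be decided from only 2 same-numbered pairs. Deviations of same-numbered libraries correlated at 0.27 and 0.13 in resting and 0.18 and 0.09 in dividing cells. Those pairs also shared the most cell barcodes (11 for replicates 2 and 9 for replicates 3, at most 3 in other pairs). With the replicate block 0 members were called in either class, with 17 genes in resting and 0 in dividing cells. The 2 genes of the interaction became 0 under DESeq2, RLE scaling, no scaling, no filter, thinned counts, gates on whole cells and every barcode of 1000 UMIs, 1 with cells near the gate or clusters, and 0 to 4 with 1 library left out. The 8 members over 2 times higher in myeloid than resting B-lineage cells became 4 thinned and 3 with gates on whole cells. The cause of these shifts was not tested. Clusters gave no S-phase or Rag class, and gates on whole cells too few Rag-positive cells, so those contrasts had no value there. Depth limits Slc2a1 and Hk2, and the stage results rest on sums of 0 to 41 UMIs of a member.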
